A study of Mus musculus with 8 samples.

Results

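The genes described here are the cell-surface receptors by which cells hold extracellular matrix: 25 integrin chains, the 4 syndecans, 4 glypicans, the discoidin domain receptors Ddr1 and Ddr2, and the hyaluronan receptor Cd44. They were taken from a list of 36 gene symbols, and all 36 were measured, each by 1 transcript cluster, among 19938 genes in all. The study put RNA from the triceps of 8 mice, all 3 months old, on Affymetrix Mouse Gene 1.0 ST arrays, 1 per animal: 4 Nf1Prx1 mutants and 4 wild-type controls. Nf1Prx1 is, by its name, a conditional mutant of Nf1, the gene of the Ras-inactivating protein neurofibromin, made with a Cre recombinase under the Prx1 limb mesenchyme enhancer. The labels give only the genotype name, so whole muscle of these animals mixes cells in which Cre may have acted with cells in which it did not. The series is about the need for Nf1 in forming muscle, and setting mutant against control triceps asks which matrix receptors differ at this age.

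Integrins are pairs of an alpha and a beta chain that span the membrane, bind laminin, collagen, fibronectin or other cells outside, and couple to actin inside through talin, kindlin and their partners. In muscle fibres the main pair is Itga7 with Itgb1, a laminin receptor at the tendon junction and along the fibre, whereas Itgb2 and its alpha chains are carried by white blood cells. Syndecans and glypicans are heparan sulphate proteoglycans that hold growth factors and matrix proteins at the cell surface, syndecans through a membrane-spanning core and glypicans through a lipid anchor. Discoidin domain receptors are tyrosine kinases that respond to collagen, and Cd44 binds hyaluronan.

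The arrays were of skeletal muscle by their leading markers: Acta1, skeletal actin, had log2 levels of 13.74 to 13.99 in Nf1Prx1 and 13.94 to 14.01 in control arrays. The 8 array medians spanned 7.57 to 7.67, and any array correlated with any other across genes at 0.928 to 0.994. Nf1 itself stood at 8.72 ± 0.07 in Nf1Prx1 and 8.85 ± 0.12 in control triceps (SD, n = 4 each), and this difference of -0.13 was not beyond the spread (exact permutation test, two-sided, p = 0.171). The arrays numbered 1 stood apart in both groups. The neutrophil granule gene Ngp had levels of 11.57 in Nf1Prx1 1 and 10.98 in control 1, against 5.74 to 7.06 in the other Nf1Prx1 arrays and 5.45 to 6.10 in the other controls. The brown fat gene Ucp1 stood at 9.75 and 10.18 in these same arrays, against 6.05 to 6.18 in the other mutants and 6.01 to 6.24 in the other controls. Xist, the X-inactivation transcript of female cells, was at 10.94 and 11.35 in Nf1Prx1 3 and 4 and at 10.54 and 10.85 in control 2 and 4, and between 5.52 and 5.86 in the other 4 arrays, so that same-numbered arrays differed in it for numbers 2 and 3.

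Gpc3, the leukocyte chains Itgb2 and Itgax, and the collagen receptor Ddr2 were higher in Nf1Prx1 triceps, Itgb6 was lower, and the muscle fibre pair Itga7 and Itgb1 differed by less than its spread. In the unpaired fit 0 of 36 members passed an adjusted p of 0.05, as did 0.0% of all genes (limma, smallest adjusted p 0.149 among the members and 0.0746 among all genes). At an unadjusted p under 0.05 there were 6 members, or 16.7%, against 13.6% of all genes. With the replicate number of the sample titles as a block (the paired fit), 4 members passed as higher, or 11.1%, against 3.36% of all genes. In the same paired fit 1 member passed as lower, or 2.78%, against 5.0% of all genes. Rose and fell are used only of genes that passed in the paired fit, and each adjusted p is over all genes. The paired fit called 2 members without the arrays numbered 1 (Itgb2 and Gpc3), 6 without number 2, and 0 without number 3 or number 4, and its pairing was read from these arrays, so its adjusted p values may be too small.

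The median member was higher in Nf1Prx1 by 0.08 on the log2 scale, against a median of -0.04 over all genes, and 22 of the 36 had a higher mean, as did 41.7% of all genes. In 10 members, or 27.8%, the Nf1Prx1 array was the higher of all 4 same-numbered pairs by any amount, against 11.8% of all genes. In 5 members, or 13.9%, it was the lower of all 4 pairs, against 21.3% of all genes. The groups did not overlap at all for Itga8 and Itgax, both higher in Nf1Prx1, which is 5.56% of members against 2.58% of genes. No member had all Nf1Prx1 arrays below all controls, against 6.04% of genes. In whole muscle, more cells of a type and more RNA per cell cannot be told apart in any of these values.

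**Figure D1:**
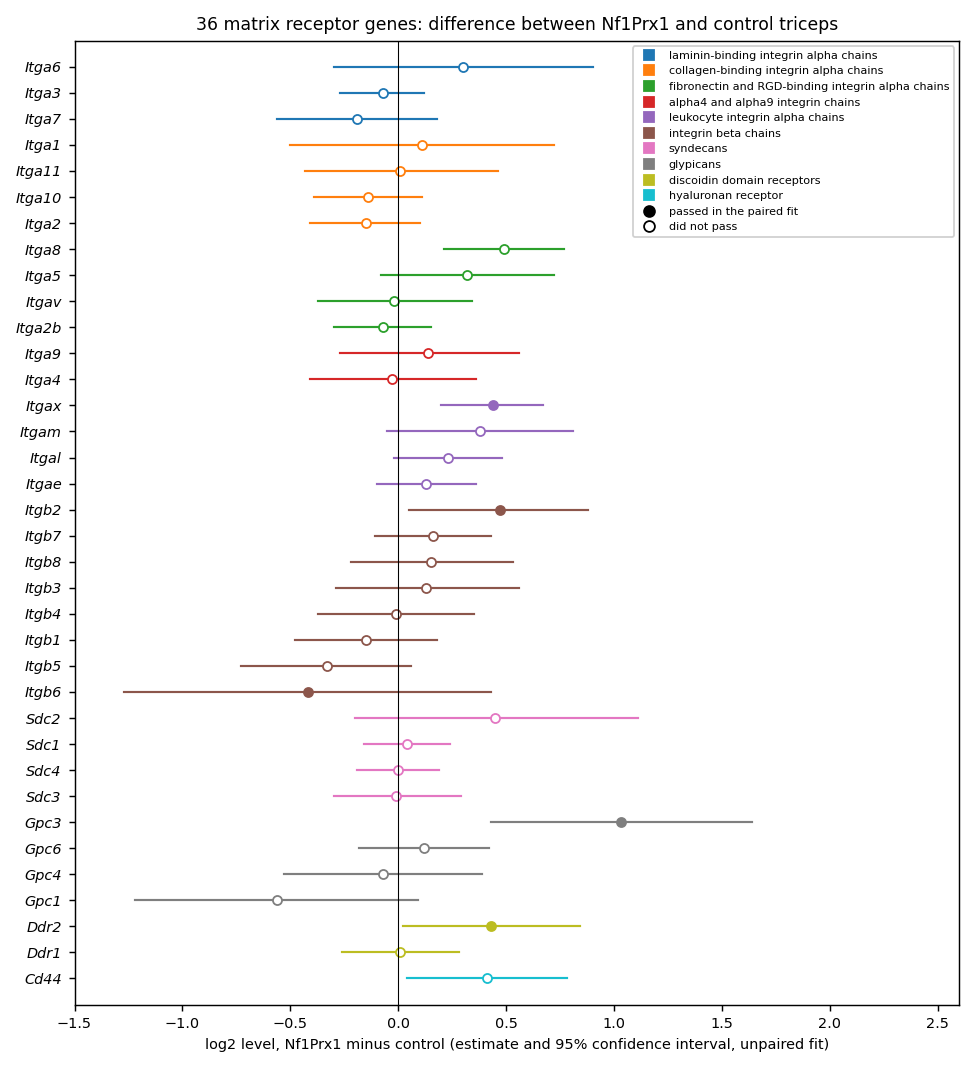
The log2 difference of each of the 36 genes (horizontal axis, Nf1Prx1 minus control, with the 95% confidence interval of the unpaired fit), grouped and coloured by role. Filled circles passed in the paired fit: Gpc3 at 1.03, Itgb2 at 0.47, Itgax at 0.44, Ddr2 at 0.43 and Itgb6 at -0.42. The interval of Itgb6 spans 0, and of the open circles those of Itga8 and Cd44 do not.

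Among the glypicans, Gpc3 rose more than any other of the 36 members. Gpc3 is a glypican of embryonic and mesenchymal cells that binds Hedgehog and Wnt proteins. Its log2 levels were 9.68, 9.25, 10.05 and 10.44 in Nf1Prx1 arrays 1 to 4, against 9.30, 8.39, 8.68 and 8.92 in control arrays 1 to 4. Every Nf1Prx1 array lay above its same-numbered control, and the groups overlapped only between Nf1Prx1 2 and control 1. The means were 9.86 ± 0.51 and 8.82 ± 0.38 (SD, n = 4 each), a 2.05-fold difference (log2 1.03, SE 0.27; limma adjusted p = 0.170 unpaired and 0.0210 paired). Without both arrays numbered 1 the difference was 1.25 (unpaired adjusted p = 0.0958).

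The other glypicans did not pass. Gpc4, next to Gpc3 on the X chromosome and likewise a surface glypican, differed by -0.07, with a 95% confidence interval of -0.53 to 0.39. The change of Gpc3 exceeded that of Gpc4 by 1.11 on the log2 scale, but over the 8 arrays this did not pass after adjustment (exact permutation test, two-sided, p = 0.0571, adjusted p = 0.114 over 4 gene pairs picked with their values known). The design allows no p below 0.0286. The other pairs gave 0.62 for Itgb2 over Itgb1 (exact p = 0.0571, adjusted p = 0.114), 0.42 for Ddr2 over Ddr1 (exact p = 0.2) and 0.46 for Sdc2 over Sdc3 (exact p = 0.171). Gpc6 differed by 0.12, with an interval of -0.18 to 0.42.

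Gpc1, the glypican that skeletal muscle cells are known to carry, had the most negative difference of the members. Its levels were 9.02, 10.37, 10.45 and 10.16 in Nf1Prx1 arrays 1 to 4, against 10.30, 10.61, 10.74 and 10.58 in control arrays 1 to 4. It was lower in the Nf1Prx1 array of each pair, and Nf1Prx1 1 was the lowest by far. The difference was -0.56 (SE 0.29; limma adjusted p = 0.440 unpaired and 0.0919 paired), so it did not pass. Muscle fibre markers moved in part with it. Their mean level was 11.67, 11.92, 12.63 and 11.98 in Nf1Prx1 arrays 1 to 4, lowest where Gpc1 was lowest, against 12.29 to 12.58 in controls, with a lower mean in Nf1Prx1 for 12 of 12 markers. The median difference of these 12 was only -0.11, and 1 passed as lower in the paired fit, against 5.0% of all genes. The slow-fibre genes Myl3, Myh7 and Tnnt1 differed most, by -1.78, -1.17 and -0.84. Acta1 and Ckm differed by -0.10 and -0.11. The part of these markers in the Gpc1 values was not tested.

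The neighbours Gpc3 and Gpc4 are shown side by side in the 250 bases before their starts, because they adjoin each other and differed by 1.03 and -0.07. The sequences are those of RefSeq in GRCm38.p6, at chrX:52613975-52614224 for Gpc3 and chrX:52164924-52165173 for Gpc4, both on the minus strand. Capitals mark matches on either strand to the GC box, spelled GGGCGG, and to a second motif, spelled GAGGAA, and no matches overlap.
Gpc3: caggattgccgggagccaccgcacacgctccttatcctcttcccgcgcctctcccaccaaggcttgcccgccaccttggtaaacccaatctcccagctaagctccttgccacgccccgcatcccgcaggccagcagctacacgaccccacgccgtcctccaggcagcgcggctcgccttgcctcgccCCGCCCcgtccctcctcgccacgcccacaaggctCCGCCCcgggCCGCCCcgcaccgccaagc
Gpc4: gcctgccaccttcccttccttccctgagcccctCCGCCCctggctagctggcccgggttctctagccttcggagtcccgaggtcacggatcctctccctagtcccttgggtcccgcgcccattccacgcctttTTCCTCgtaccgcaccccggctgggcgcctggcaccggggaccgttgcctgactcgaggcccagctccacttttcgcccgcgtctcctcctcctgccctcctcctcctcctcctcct
The Gpc3 window holds 3 GC boxes and no GAGGAA, and the Gpc4 window holds 1 of each. Of 32851 promoter windows of this length, 32.7% hold a GC box and 23.3% hold GAGGAA. G and C make up 71.6% of the Gpc3 window and 68.4% of the Gpc4 window.

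Of the leukocyte integrin chains among the members, Itgb2 and Itgax rose in Nf1Prx1 triceps. The others had higher means without passing, apart from Itga4. Itgb2 is the common beta chain of white blood cell integrins and pairs with Itgal, Itgam and Itgax. Its levels were 8.72, 8.19, 8.25 and 8.41 in Nf1Prx1 arrays 1 to 4, against 8.38, 7.76, 7.60 and 7.96 in control arrays 1 to 4. Control 1 reached into the Nf1Prx1 range, and each Nf1Prx1 array exceeded its same-numbered control. Itgb2 rose by 0.47 on the log2 scale, or 1.38-fold (SE 0.18; limma adjusted p = 0.311 unpaired and 0.0234 paired).

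Itgax, the alpha chain found on dendritic cells and some macrophages, had levels of 7.26, 7.09, 7.32 and 7.09 in Nf1Prx1 arrays 1 to 4. The controls stood at 6.58, 6.72, 6.79 and 6.91, and the groups did not overlap. Itgax rose 1.35-fold (log2 0.44, SE 0.10; limma adjusted p = 0.149 unpaired and 0.0434 paired), at dim signals. It is among the 3 members, with Itgae and Itgb7, whose mean level lay below the 40th percentile of genes (7.22), and 33 members passed a filter at that level.

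Itgam, the partner of Itgb2 on macrophages and neutrophils, was higher by 0.38 (limma adjusted p = 0.426 unpaired and 0.124 paired) and did not pass. Its levels were 7.77, 7.32, 7.63 and 7.84 in Nf1Prx1 arrays, against 7.76, 7.13, 6.90 and 7.24 in controls. Control 1 stood level with Nf1Prx1 1, and the other 3 pairs were 0.19, 0.73 and 0.60 apart. Itgal, the alpha chain of lymphocytes, differed by 0.23 (95% interval -0.02 to 0.48) and Itgae, a chain of T cells in epithelium, by 0.13 (-0.10 to 0.36). The median difference of the 4 leukocyte alpha chains among the members was 0.30. Itgad, a leukocyte alpha chain outside the members, went the other way, at -0.11 (95% interval -0.45 to 0.23). Its means were 8.11 in Nf1Prx1 and 8.22 in control triceps. Itgb7, the lymphocyte beta chain that pairs with Itga4 and Itgae, differed by 0.16 (-0.11 to 0.43), and Itga4, also found on lymphocytes, by -0.03 (-0.41 to 0.36).

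Macrophage markers were higher in Nf1Prx1 as well. All 10 had a higher mean in Nf1Prx1, 4 passed as higher in the paired fit, and their median difference was 0.50. Their mean level was 9.21, 8.69, 8.95 and 9.16 in Nf1Prx1 arrays 1 to 4, against 9.18, 8.12, 8.30 and 8.45 in control arrays 1 to 4. Control 1 was thus as high as the highest mutants, as for Itgam. For Itgax control 1 was instead the lowest of the controls, at 6.58. Neutrophil markers were high in the arrays numbered 1, at 9.19 in Nf1Prx1 and 8.72 in control, against 6.59 to 7.08 in the other mutants and 6.52 to 6.71 in the other controls. Without both arrays numbered 1, the Itgb2 difference was 0.51 and the Itgax difference 0.36 (unpaired adjusted p = 0.108 and 0.174). Lymphocyte markers moved as well, with a higher mean in Nf1Prx1 for 9 of 9, a median difference of 0.37 and 1 gene, Ccl5, passing as higher in the paired fit. Their mean level was 8.31, 7.08, 6.88 and 6.93 in Nf1Prx1 arrays 1 to 4, against 7.08, 6.93, 6.67 and 6.79 in control arrays 1 to 4, so Nf1Prx1 1 stood highest. The part of macrophages, neutrophils and lymphocytes in the leukocyte chains was not tested.

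Itgam and Itgax lie next to each other on chromosome 7, and the 250 bases before their starts are shown because both encode alpha chains that pair with Itgb2. They are RefSeq sequences in GRCm38.p6, at chr7:128062390-128062639 for Itgam and chr7:128129300-128129549 for Itgax, on the plus strand. Capitals mark the motifs used for the glypicans; GAGGAA is the core of sites bound by the myeloid factor Spi1.
Itgam: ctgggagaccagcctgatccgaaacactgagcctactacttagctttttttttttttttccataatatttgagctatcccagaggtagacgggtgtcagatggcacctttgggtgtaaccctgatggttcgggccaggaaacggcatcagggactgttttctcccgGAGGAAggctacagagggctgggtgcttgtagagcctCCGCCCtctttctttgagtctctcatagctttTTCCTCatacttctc
Itgax: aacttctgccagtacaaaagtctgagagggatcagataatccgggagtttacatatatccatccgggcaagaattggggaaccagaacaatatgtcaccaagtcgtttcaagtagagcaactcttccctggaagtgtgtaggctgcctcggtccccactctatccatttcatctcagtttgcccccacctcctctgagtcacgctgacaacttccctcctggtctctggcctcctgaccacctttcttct
The Itgam window holds 2 GAGGAA matches and 1 GC box, and the Itgax window holds none of either. Of the 26 members with a promoter in the table, 11 hold GAGGAA and 12 hold a GC box in at least 1 window. Some members have several windows, so these counts per gene cannot be set against the shares per window given for the glypicans.

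Of the collagen and hyaluronan receptors, Ddr2 rose and Cd44 narrowly missed the threshold. Ddr2, the collagen receptor kinase of fibroblasts, had levels of 9.91, 9.47, 10.17 and 10.24 in Nf1Prx1 arrays 1 to 4, against 9.63, 9.21, 9.60 and 9.63 in control arrays 1 to 4. Only Nf1Prx1 2 lay within the control range. Ddr2 rose 1.35-fold (log2 0.43, SE 0.18; limma adjusted p = 0.346 unpaired and 0.0384 paired). Ddr1, its epithelial relative, differed by 0.01, with an interval of -0.26 to 0.28. Cd44 had levels of 8.54, 7.79, 8.36 and 8.41 in Nf1Prx1 arrays 1 to 4, against 8.09, 7.72, 7.80 and 7.84 in controls. It was higher in all 4 pairs, least so in number 2, and at 0.41 it missed the threshold in both fits (SE 0.17; limma adjusted p = 0.327 unpaired and 0.0558 paired).

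Itga8, an alpha chain of mesenchymal and smooth muscle cells that binds nephronectin, had levels of 7.38, 7.28, 7.63 and 7.81 in Nf1Prx1 arrays 1 to 4. The controls stood at 7.09, 7.12, 6.98 and 6.96, all below the mutants. The difference was 0.49, or 1.4-fold (SE 0.13; limma adjusted p = 0.168 unpaired and 0.0576 paired), and did not pass. Sdc2, the syndecan of mesenchymal cells, differed by 0.45 (95% interval -0.20 to 1.11). Its levels were 9.65, 8.66, 9.85 and 9.91 in Nf1Prx1 arrays and 9.49, 8.66, 8.84 and 9.26 in controls, so the second pair was equal. Markers of fibroblasts and fibro-adipogenic progenitors were at a mean level of 10.79, 10.11, 10.76 and 10.87 in Nf1Prx1 arrays, against 10.72, 9.83, 10.08 and 10.17 in controls. Of the 9 measured, 8 had a higher mean in Nf1Prx1 (4 higher and 1 lower by the paired fit), with a median difference of 0.45. As for Ddr2, Cd44, Sdc2 and Gpc3, the lowest mutant array in this list was Nf1Prx1 2. This was not particular to fibroblast markers. The same array was the lowest mutant for macrophage, white adipocyte, endothelial and pericyte markers, though not for muscle fibre or neutrophil markers. Its mean over all genes was 7.65, against 7.70 in each other mutant. White adipocyte markers differed most of the marker lists, with a higher mean in Nf1Prx1 for 9 of 9, 8 passing as higher in the paired fit and a median difference of 1.15. Their mean level was 12.31, 10.17, 10.55 and 10.97 in Nf1Prx1 arrays 1 to 4, against 11.08, 9.09, 8.89 and 9.09 in control arrays 1 to 4, and was highest in the arrays numbered 1. The part of fibroblast and adipocyte content in these receptors and in Gpc3 was not tested. Pericyte and smooth muscle markers, which bear on Itga8, had a median difference of -0.08, with mean levels of 8.75 to 9.43 in Nf1Prx1 and 9.07 to 9.20 in control arrays.

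**Figure D2:**
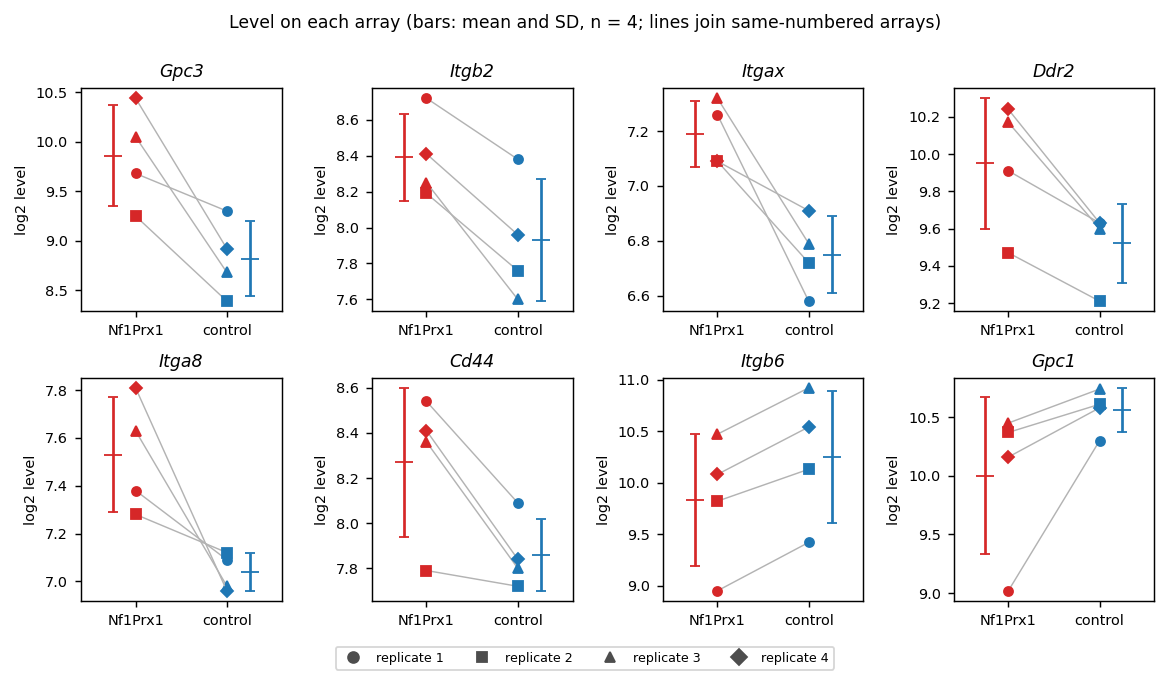
The log2 level (vertical axis) of 8 receptor genes on each array, with Nf1Prx1 at left and control at right, mean and SD beside the points (n = 4), and lines joining same-numbered arrays. The Nf1Prx1 end of each line is the higher in all 4 pairs for Gpc3, Itgb2, Itgax, Ddr2, Itga8 and Cd44 and the lower in all 4 for Itgb6 and Gpc1; the axes do not start at 0 and differ between panels.

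The integrins of muscle fibres and of laminin did not pass. Itga7, the fibre alpha chain, had levels of 9.05, 8.71, 9.29 and 9.32 in Nf1Prx1 arrays 1 to 4, against 8.96, 9.28, 9.45 and 9.43 in control arrays 1 to 4. The groups overlapped, and the difference was -0.19 (95% interval -0.56 to 0.18; limma adjusted p = 0.678 unpaired and 0.371 paired). Itgb1, the beta chain shared by most matrix integrins, had levels of 10.30, 9.85, 10.48 and 10.46 in Nf1Prx1 arrays, against 10.56, 10.33, 10.47 and 10.32 in controls. Nf1Prx1 1 and 2 lay below every control and Nf1Prx1 3 and 4 inside their range, and the difference was -0.15 (-0.48 to 0.18; adjusted p = 0.724 unpaired and 0.493 paired). With array weights the sign turned, at 0.08 (adjusted p = 0.536). Itga6, a laminin-binding chain of satellite, endothelial and nerve sheath cells, differed by 0.30 (-0.30 to 0.90), with its highest level, 10.01, in Nf1Prx1 1. Endothelial markers had a median difference of -0.06, with mean levels of 8.76 to 9.31 in Nf1Prx1 and 9.07 to 9.39 in control arrays. Schwann cell and nerve markers had a median difference of 0.09, with mean levels of 8.29 to 8.62 in Nf1Prx1 and 8.17 to 8.30 in control arrays. Itga3, another laminin-binding chain, differed by -0.07 (-0.27 to 0.12).

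Itgb6 fell by 0.42 on the log2 scale, a small and even step under a wide spread between animals. It is the beta chain, best known from epithelium, that with Itgav activates latent TGF-beta. Its levels were 8.95, 9.82, 10.47 and 10.08 in Nf1Prx1 arrays 1 to 4, against 9.42, 10.13, 10.92 and 10.54 in control arrays 1 to 4. The groups overlapped across most of their range, while the pairs differed by -0.47, -0.31, -0.45 and -0.46. The limma adjusted p was 0.688 unpaired and 0.0245 paired, so this call rests on the pairing. With quantile normalization, in an alternative chosen after the data were seen, the paired fit no longer called it. Epithelial markers had a median difference of 0.15 and mean levels of 6.95 to 7.67 in Nf1Prx1 and 6.78 to 7.11 in control arrays. Muscle fibre markers had a median difference of -0.11. Their mean levels were 11.67, 11.92, 12.63 and 11.98 in Nf1Prx1 arrays 1 to 4, against 12.29, 12.46, 12.58 and 12.53 in controls. Within each group these ranked the arrays in the same order as Itgb6. The part of either cell type in the Itgb6 values was not tested. Itgb5, another partner of Itgav, differed by -0.33 (95% interval -0.73 to 0.06; adjusted p = 0.140 paired), and Itgav itself by -0.02 (-0.37 to 0.34).

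None of the remaining integrin chains passed in either fit. The fibronectin receptor chain Itga5 differed by 0.32 (95% interval -0.08 to 0.72 unpaired and 0.03 to 0.61 paired; limma adjusted p = 0.481 unpaired and 0.159 paired) and was higher in all 4 pairs, with 9.27 in Nf1Prx1 4 as its highest level. The collagen-binding chains Itga1, Itga2, Itga10 and Itga11 had differences from -0.15 to 0.11, and Itga2 and Itga10 were lower in all 4 pairs. Itga9, which binds tenascin and other ligands, differed by 0.14 (-0.27 to 0.56). The platelet chains Itga2b and Itgb3 differed by -0.07 (-0.30 to 0.15) and 0.13 (-0.29 to 0.56), and Itgb3 was highest in Nf1Prx1 1, at 8.32. The mean of the 5 measured platelet markers was also highest in the arrays numbered 1. It was 8.92 in Nf1Prx1 1 and 8.64 in control 1, against 7.62 to 7.99 in the other mutants and 7.69 to 8.01 in the other controls. Ppbp stood out most, at 11.48 and 10.66 against 6.62 to 8.27 in the other arrays, and Pf4 followed. The rest did not follow in both groups: Treml1 was highest in the arrays numbered 2, and Gp5 and Gp9 were highest in control 2 among the controls. Itgb4, the hemidesmosome chain, differed by -0.01 (-0.37 to 0.35) and Itgb8, a TGF-beta activating chain, by 0.15 (-0.22 to 0.53).

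Of the syndecans besides Sdc2, all 3 differed by 0.04 or less. Sdc3 and Sdc4, which mark satellite cells, the stem cells of muscle, differed by -0.01 (95% interval -0.30 to 0.29) and 0.00 (-0.19 to 0.19). Sdc1, the syndecan of epithelial and plasma cells, differed by 0.04 (-0.16 to 0.24). Satellite cell markers had a lower mean in Nf1Prx1 for 7 of 7, with a median difference of -0.22 and 1 gene passing as lower in the paired fit.

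**Figure D3:**
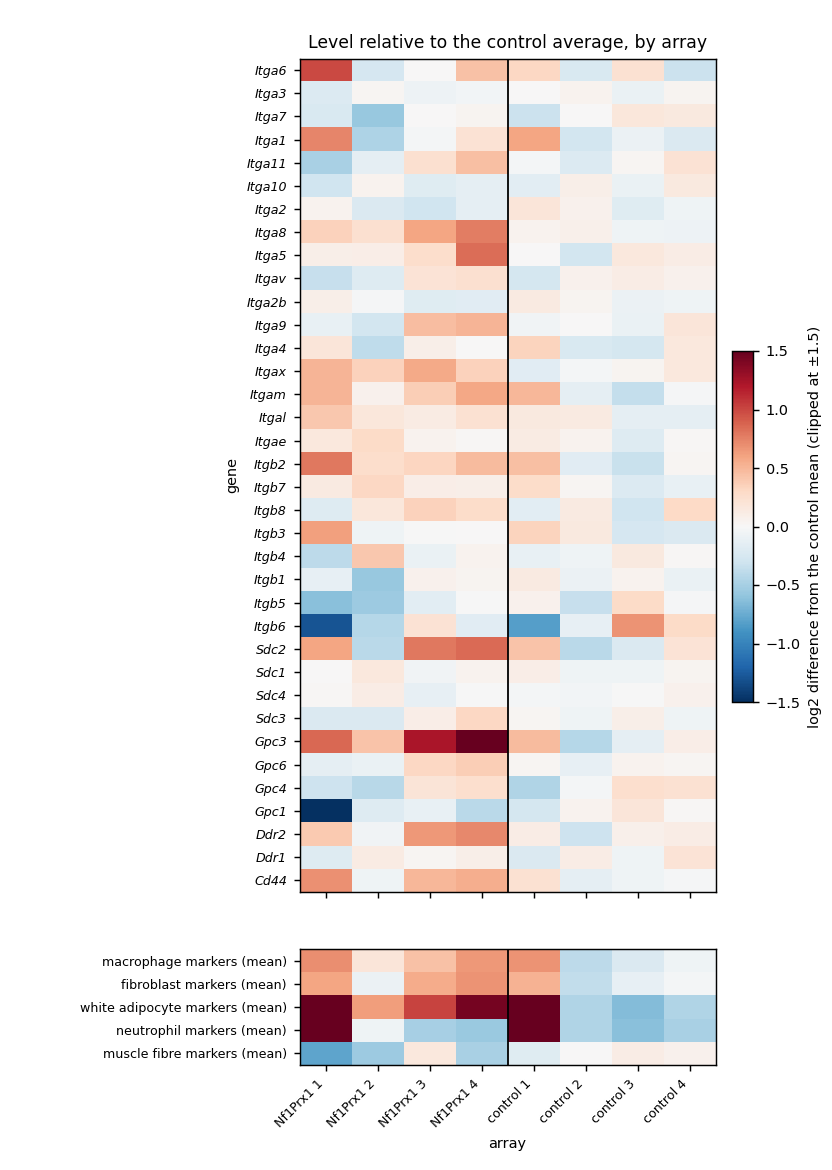
Each cell gives the log2 level of a gene on an array relative to the control mean of that gene (red above, blue below, clipped at 1.5 either way), with Nf1Prx1 arrays at left and marker list means below. Gpc3, Ddr2, Cd44 and Sdc2 are lowest among the mutants in Nf1Prx1 2, and Nf1Prx1 1 and control 1 share high neutrophil and adipocyte markers.

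The proteins around these receptors were read from lists of related genes. Of 21 measured matrix ligands of integrins, 9 passed as higher and 0 as lower in the paired fit, with a median difference of 0.35 against -0.04 over all genes. Over all genes 3.36% passed as higher and 5.0% as lower. The fibroblast and white adipocyte markers were also higher in Nf1Prx1, with median differences of 0.45 and 1.15. Col1a1 and Col3a1 passed as higher and are in both the ligand list and the fibroblast list, so those lists are not independent. The part of fibroblast and adipocyte content in the ligand values was not tested. The laminin chain Lamb1 rose 1.74-fold, the basement membrane linker Nid2 1.55-fold and the type III collagen chain Col3a1 1.56-fold (limma paired adjusted p = 0.00899, 0.0142 and 0.0147). Of 26 measured proteins that bind integrin tails or form focal adhesions, 4 passed as higher and 0 as lower, with a median of 0.10. Ptk2b, a kinase related to focal adhesion kinase, rose 1.43-fold, the actin linker Parva 1.42-fold and the actin crosslinker Actn1 1.30-fold (paired adjusted p = 0.0201, 0.0225 and 0.0361). The fourth was Parvg, the parvin of blood cells, 1.34-fold higher (paired adjusted p = 0.0395). The groups did not overlap for 3 genes of this list that were higher in Nf1Prx1, against 2.58% of all genes. They also did not overlap for 1 lower gene, against 6.04% of all genes. The lower gene was Fermt2, the kindlin of muscle, at 10.81 ± 0.20 against 11.18 ± 0.08 (SD, n = 4 each). Fermt2 did not pass (limma paired adjusted p = 0.0759).

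Of 13 cell-surface and plasma ligands of integrins, only Vcam1, the ligand of the Itga4 integrins, rose, 1.49-fold (paired adjusted p = 0.0377). Of 20 genes of heparan sulphate synthesis and editing, 1 rose and 1 fell, near the 3.36% and 5.0% of all genes. Sulf2, which strips sulphate groups from heparan sulphate outside the cell, rose 1.68-fold, to 9.44 ± 0.76 in Nf1Prx1 against 8.69 ± 0.43 in control triceps (SD, n = 4 each; limma paired adjusted p = 0.0237). Hs6st1, which adds sulphate groups in the Golgi, was 1.28-fold lower (paired adjusted p = 0.0395). Of 9 genes for hyaluronan synthesis, binding and breakdown, only Stab1, a scavenger receptor of macrophages and sinus endothelium, rose, 1.35-fold (paired adjusted p = 0.0234).

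Of 14 other matrix receptors and relatives, 3 rose and 2 fell. Cd47, an integrin-associated protein that also restrains phagocytes, rose 1.44-fold, and the collagen uptake receptor Mrc2 rose 1.41-fold (limma paired adjusted p = 0.0234 and 0.0377). Cspg4, a proteoglycan of pericytes, rose 1.29-fold (paired adjusted p = 0.0485). The 10 pericyte and smooth muscle markers, which include Cspg4, had a median difference of -0.08 and a lower mean in Nf1Prx1 for 6. Of these Abcc9 passed as lower (paired adjusted p = 0.0449). Itgbl1, a secreted protein that resembles the stalk of integrin beta chains, was 1.55-fold lower, at 7.62 ± 0.19 in Nf1Prx1 and 8.25 ± 0.32 in control triceps (SD, n = 4 each), with no overlap of the groups (limma paired adjusted p = 0.0436). Dag1, dystroglycan, the laminin receptor of the dystrophin complex, was 1.31-fold lower, at 10.81 ± 0.54 and 11.20 ± 0.42 (limma paired adjusted p = 0.0481). The calls in these lists come from the paired fit alone, and none of them passed in the unpaired fit.

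The authors' deposited table of probe sets, which lie below the level of whole transcripts, gave the pattern along each gene. It states 4 arrays per group, but its standard deviations and test values imply 5, so it was not matched to the 8 arrays above. It holds 805 probe sets of the 36 members, of which 510 were higher (46.6% of all probe sets were) and 295 lower in mutant muscle. By the authors' deposited table their median log2 difference was 0.16, against -0.03 for the whole table. At an unadjusted p under 0.05 in the authors' deposited table, 129 member probe sets, or 16.0%, were higher, against 7.23% of all, and 21, or 2.61%, were lower, against 7.42% of all. Probe sets of a gene share its transcript and are not replicates. After adjustment over the 234873 probe sets that the authors' deposited table holds, 0 of the 805 passed (0.12% of all did), with a smallest adjusted p of 0.0623. The authors' own list of higher probe sets held 16 of the 805, or 1.99%, from 9 genes, against 0.765% of all probe sets, and their list of lower probe sets held 0, against 0.367% of all.

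Along Gpc3 all 8 probe sets were higher in mutant muscle in the authors' deposited table, by 0.87 to 1.6 on the log2 scale, and 8 of 8 had an unadjusted p under 0.05. The sixth by ID had a mean of 10.7 in mutant and 9.5 in control muscle in the authors' deposited table, with a lowest mutant value of 10.4 above the highest control value of 10. Gpc1 was the reverse in the authors' deposited table, with all 10 probe sets lower, by 0.26 to 0.84, as a median difference of -0.55. For Gpc4, 10 of 11 probe sets were higher in the authors' deposited table, with a median of 0.22, whereas its cluster differed by -0.07. An unadjusted p under 0.05 was reached by 1 of these 11. Ddr2 had 18 of 18 probe sets higher in the authors' deposited table, each with an unadjusted p under 0.05, at 0.26 to 0.92. Itgb2 had 17 of 17 higher in the authors' deposited table, at 0.19 to 1.62, 9 of them with an unadjusted p under 0.05.

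Cd44 is a gene whose central exons are spliced in or out, and 22 of its 23 probe sets were higher in mutant muscle in the authors' deposited table. The 15 with an unadjusted p under 0.05 lay at both ends of the ID order and between them in the authors' deposited table, and the 20th and 21st were in the higher list, 1.76-fold and 1.56-fold higher. Only the last was lower, at a mean of 6.2 in mutant and 7.0 in control muscle in the authors' deposited table (unadjusted p = 0.157653). No exon map of the probe sets was used here. For Itgb6, 20 of 22 probe sets were lower in the authors' deposited table, with a median of -0.23 and 0 under an unadjusted p of 0.05. For Itga7 and Itgb1 the medians in the authors' deposited table were 0.02 and 0.02, with 16 of 30 and 10 of 19 probe sets higher. For Itga8 and Itga5, 29 of 30 and 28 of 30 probe sets were higher in the authors' deposited table, with medians of 0.49 and 0.54.

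**Figure D4:**
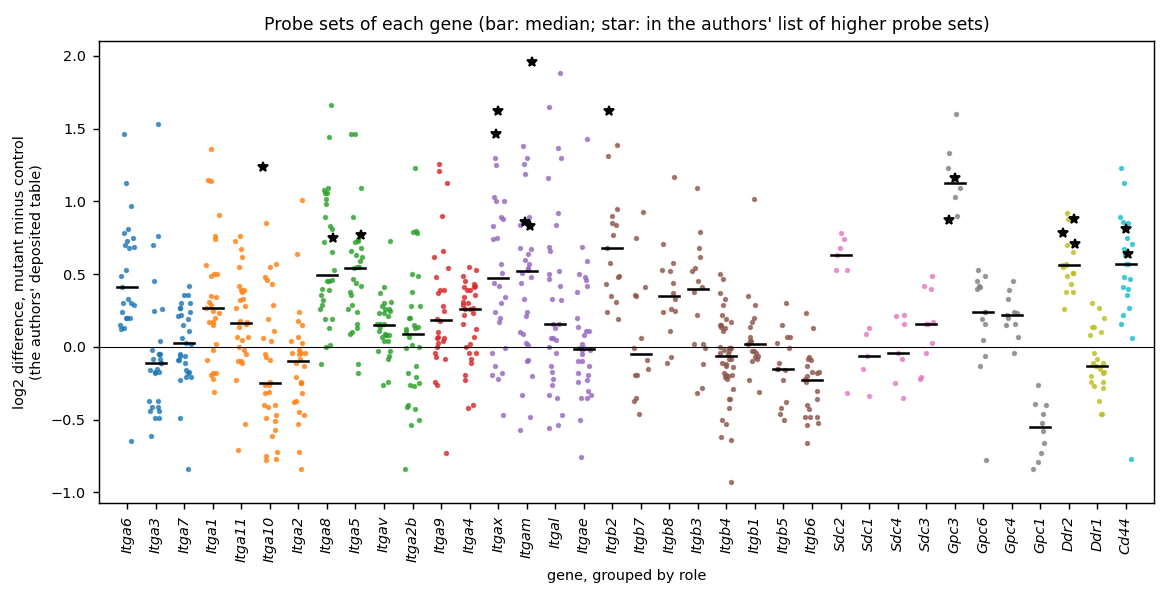
The log2 difference between mutant and control muscle (vertical axis) of each of the 805 probe sets in the authors' deposited table, by gene and coloured by role, with the median as a bar and a star for the 16 in the authors' list of higher probe sets. Gpc3, Itgb2 and Ddr2 have every probe set above 0 and Gpc1 has all 10 below 0.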

How the data were processed

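Per the labels, each triceps RNA was measured on an array of its own. Per the submitters' processing notes, the authors made the deposited log2 levels per transcript cluster by RMA in the Affymetrix Expression Console; versions and genome build are not given in the sources used here. Per the file headers, the authors also deposited a table per probe set with group means, standard deviations, minima and maxima of log2 intensity, an unadjusted p-value, a ratio (control over mutant) and an F score. Its differences were turned to mutant minus control and its p-values adjusted here. The authors' lists start at an F of 20 and a 1.5-fold change.

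The platform annotation gave a single symbol to 21789 of 35556 clusters and several symbols to 1621, and 12146 were not named by it; symbols were updated through the Entrez ID. The cluster with the highest mean stood for a gene, which gave 19938 genes, with no filter on dim genes. Differences were tested in R 4.3.3 with the package limma 3.58.1 (linear model with moderated variance, two-sided, Benjamini-Hochberg over all genes, threshold 0.05), and exact permutation tests used scipy 1.17.1. The number of arrays limits the precision. The p-values of the unpaired fit and of the exact tests measure the spread between 4 animals per group. Those of the paired fit measure the spread that remains once the replicate number is taken out. Both fits were run on simulated levels with independent noise. These held no replicate effect, so they cannot check the paired fit under the pairing used here.

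Titles of both groups run over replicates 1 to 4. Once group means were removed, same-numbered arrays correlated at 0.71, 0.57, 0.39 and 0.30 for numbers 1 to 4. Each exceeds 0.1, and the paired fit is therefore given beside the unpaired one. No label states a pairing, so it rests on these arrays. Numbers 3 and 4 correlated nearly as well when crossed, at 0.30 for Nf1Prx1 4 with control 3 and 0.29 for Nf1Prx1 3 with control 4.

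The members and lists were chosen with earlier results of these data known. Values on all arrays are given for members that passed in either fit or whose groups did not overlap, and for Itga7, Itgb1, Itgb2 and Cd44. From each of 6 related lists up to 3 genes with the smallest paired p are given, by fold or group mean. Gpc1, Sdc2, Itgam and the genes that complete a count of 5 or fewer were added after their values were seen. So were Fermt2, Itgad and the muscle fibre genes set beside Gpc1. Of 15 marker lists, those of cell types named beside a member are given. Alternatives were quantile normalization, a filter on dim genes, array weights, other choices of cluster and variance, and leaving out arrays. Sequences are from RefSeq, and 10 members had no promoter in the table used.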

Additional observations from a re-analysis of the deposited data

Results flagged for a closer look

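In a group of 4 arrays, the array at the end of the range was set against the others by its gap to the nearest one, relative to the whole range, and 4 of 74 groups (36 members and Nf1, each in Nf1Prx1 and control) had a gap past the 95% limit, which chance gives in about 1 in 20 groups. Itgb3 stood at 8.32 in Nf1Prx1 1, against 7.65, 7.70 and 7.71 in the other mutants. Itgav stood at 9.44 in control 1, against 9.76 to 9.81 in the other controls. Ddr2 stood at 9.21 in control 2, against 9.60 to 9.63 in the other controls. Gpc6 stood at 8.35 in control 2, against 8.50 to 8.52 in the other controls.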

How the results depend on the processing

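The directions of Gpc3, Itgb2, Itgax, Ddr2, Itga8 and Cd44 (higher) and of Itgb6 and Itga7 (lower) were the same under all alternatives tried for them, with differences of 0.84 to 1.42 for Gpc3, 0.36 to 0.62 for Itgb2, 0.33 to 0.52 for Itgax, 0.33 to 0.62 for Ddr2 and -0.70 to -0.13 for Itgb6. Itgb1 turned to 0.08 with array weights. Nf1 passed under none. The median member difference ran from 0.01 to 0.14. Calls depended on the pairing and on single arrays, and the cause was not tested. Of 19938 genes the unpaired fit called 0, quantile normalization 5, array weights 3070 and the fit without both arrays numbered 1 called 96. With the replicate block 1667 genes were called, and with the block 1406 after quantile normalization, 1796 without dim genes and 1961 with array weights, the last 3 chosen after seeing the data. Leaving out 1 array gave 0 to 3, and leaving out 1 number in the paired fit gave 719, 1202, 206 and 50 for numbers 1 to 4. Of the members the replicate block called 5 (4 higher, 1 lower), array weights 11 (all higher), and with the block quantile normalization 4, the dim filter 6 and array weights 7; leaving out 1 array gave 0, and 1 number in the paired fit 0 to 6 (2 without number 1). Members whose groups did not overlap numbered 2, with 4 after quantile normalization, 1 without dim genes (Itgax is dim), 7 without both arrays numbered 1, and 2 to 7 with an array left out (7 without control 1, 6 without Nf1Prx1 2); over all genes the shares were 9.46%, 12.40%, 23.72%, 19.01% and 14.45% under these settings. By adjusted p, 0 of the members' probe sets in the authors' deposited table passed, and 0 with dim probe sets left out, while 16 passed the authors' limits of F and fold.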

Other observations

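Single probe sets of some members stood apart from the rest of their gene in the authors' deposited table. Itga10 had a median of -0.25 over 32 probe sets, and its 24th by ID was higher, with a mean of 7.9 in mutant and 6.7 in control muscle (2.36-fold, in the authors' higher list). Itgam had its 20th probe set at 6.9 in mutant and 4.9 in control muscle in the authors' deposited table (3.88-fold), from a dim control level with a standard deviation of 0.7349.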
